A study of Mus musculus with 6 samples.

Results

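The array design carries 2782 probes named by a transcript accession in place of a gene symbol, out of 55681 non-control probes. Of these, 2580 are named by an Ensembl mouse transcript (ENSMUST) and 202 by a GenBank cDNA clone (AK followed by digits). They were chosen by that name alone, with no measured value, and carry 2680 distinct names, 88 of them on more than 1 probe. They were read in forelimb autopods, the hand plates of the limb, of C57BL/6 mouse embryos at stage E11.5 that carried EGFP knocked into Sox9. Mesenchymal cells that were positive or negative for Sox9-EGFP fluorescence were collected by sorting, each kind as 3 samples of about 10 pooled autopods, and each sample was hybridised to its own 1-colour Agilent array. Both groups carry the same reporter allele, so they differ in sorted fluorescence and not in genotype.

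Such accession-only probes can cover predicted genes, non-coding RNAs, antisense and divergent transcripts, alternative ends of known genes, and pseudogenes. The array's descriptions still give 405 of them as a gene with a descriptive name. AK records are mostly full-length cDNA clones of large mouse cDNA collections, and a record whose product is called unclassifiable is one in which no protein was recognised. Many long non-coding RNAs start close to a coding gene and run away from it on the other strand, and such neighbours are known to be frequent at genes of developmental regulators. Each probe was therefore set beside the nearest probe of a curated coding transcript (RefSeq NM_ accession) of another name, by the mm9 coordinates in the files. Of the 2782 probes, 180 lay within 1 kb of that neighbour, 812 within 10 kb and 2099 within 100 kb, while 680 lay farther away and 3 had no position. The neighbour was on the opposite strand for 1384 and on the same strand for 1395, and for 274 it was described as the same gene.

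The 60-base probes of the transcripts on which the results below turn are printed here from the array files, 5′ to 3′ on the strand of the transcript they detect. They were chosen for the size of their difference, for their neighbour (Gsc, Hoxd3, Evx1, Notum, Bmp4, Notch1, Lmx1b), or for going against it (Nfix). Capitals mark the polyadenylation hexamers AATAAA and ATTAAA, which 2 of these probes hold.
ENSMUST00000131176: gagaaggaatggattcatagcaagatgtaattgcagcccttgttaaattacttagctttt
ENSMUST00000070814: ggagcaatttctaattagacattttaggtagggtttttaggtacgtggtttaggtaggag
ENSMUST00000143191: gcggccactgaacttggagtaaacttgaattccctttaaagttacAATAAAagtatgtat
AK042906: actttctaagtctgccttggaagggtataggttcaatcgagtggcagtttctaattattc
ENSMUST00000133463: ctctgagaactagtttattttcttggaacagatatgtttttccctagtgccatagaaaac
ENSMUST00000125305: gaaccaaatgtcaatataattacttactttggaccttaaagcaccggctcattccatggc
ENSMUST00000151998: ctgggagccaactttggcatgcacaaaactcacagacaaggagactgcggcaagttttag
AK143362: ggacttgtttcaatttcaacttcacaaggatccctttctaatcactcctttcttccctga
ENSMUST00000130532: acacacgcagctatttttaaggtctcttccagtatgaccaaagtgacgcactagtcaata
ENSMUST00000147294: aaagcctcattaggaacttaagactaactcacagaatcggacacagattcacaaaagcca
ENSMUST00000098571: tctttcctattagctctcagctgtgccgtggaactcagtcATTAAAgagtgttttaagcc

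Across all accession-only probes, 413 of 2782 (14.85%) held at least 1 of the 2 hexamers on the probe strand, against 13.7% of all non-control probes, 17.3% of NM_ probes and 6.27% of the array's lincRNA probes, which are of the same length. The reverse complements TTTATT and TTTAAT stood in 6.11% of them. A stretch of 25 bases shared with another probe of the array was found in 253 accession-only probes, 71 of them with an NM_ probe and 176 of them with a probe on another chromosome or over 1 kb away, so that their values cannot be assigned to 1 transcript alone.

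Levels are given as the log2 processed signal minus the 75th percentile of the same array, and a difference is positive minus negative on that log2 scale. A probe is called when limma's adjusted p over all 26473 tested probes is below 0.05. Sox9 itself, which checks the sort, had levels of 3.52, 2.99 and 3.60 in the positive arrays and of -0.88, -0.999 and -1.13 in the negative arrays, a difference of 4.37 ± 0.20 (SE, n = 3 per group, limma adjusted p 0.000513). The 5 cartilage precursor genes checked were all higher in positive cells, and the 6 limb mesenchyme genes checked were above background on all arrays, with Prrx2 (-1.93), Hoxd13 (-1.61) and Twist1 (-1.92) called lower and Tbx5 (1.02) called higher. Positive replicate 1 was dim, with a 75th percentile of 126 against 385 to 478 on the other arrays and 24743 spots above background against 29800 to 35277. Negative replicate 2 stood apart in blood and macrophage genes: the macrophage gene Cx3cr1 was at 2.34 there and between -6.62 and -6.44 on the other negative arrays, and the summed level of the 5 blood genes ranged from 0.75 to 5.42 in the negative and from 0.10 to 2.30 in the positive arrays. Of the 5 muscle precursor genes, Pax3 and Lbx1 were called lower in positive cells and the summed level ran from -3.58 to -2.34 against -0.96 to 0.18, and 2 ectoderm genes and 1 Schwann cell gene were called higher. The part of these cells in the differences below was not tested, and fewer cells of a type cannot be told apart from less RNA per cell.

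Most accession-only transcripts were dim. Of the 2782 probes, 708 were well above background on all 6 arrays and 1295 (46.6%) on none, and 959 (34.5%) were tested because all 3 arrays of 1 group or the other detected them. The tested share was 47.5% of all probes, 63.2% of NM_ probes and 29.0% of lincRNA probes, so the accession-only probes lay between coding and lincRNA probes. In the 3 positive arrays 761, 1085 and 1334 of them were well above background, and in the 3 negative arrays 1069, 1195 and 1018, the lowest being the dim array. Detection in all arrays of 1 group and none of the other was found for 4 probes in positive and 5 in negative cells, beside 78 and 187 of all 55681 probes.

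Of the 959 tested probes, 82 were called higher and 85 lower in Sox9-EGFP positive cells, 17.4% in all, beside 21.6% of all tested probes. Over all tested probes 7.96% were called higher and 13.7% lower. The share of lower calls was 50.9% among the called accession-only probes and 63.2% among all called probes. This contrast remained with median centring (50.3% and 62.5%) and with slide as a block (50.5% and 61.0%). It was absent under normexp (57.1% and 56.5%), quantile normalization (57.8% and 55.6%) and the authors' matrix (55.2% and 56.3%). A difference of at least 2-fold was called for 42 higher and 31 lower probes, against 8.82% of all tested probes, and the arrays of the 2 groups did not overlap for 359 (37.4%) against 43.2%. The median difference of the 959 was 0.08, that of all tested probes -0.10, that of NM_ probes -0.18 and that of lincRNA probes 0.18. Every slide carried 1 array of each group, and the accession-only probes had within-slide medians of 0.09, -0.0021 and 0.02. A fit blocked on slide called 97 higher and 99 lower, beside 24.9% of all tested probes. With quantile normalization 43 were called higher and 59 lower, beside 14.3% of all tested probes. With normexp and quantile normalization the counts were 48 and 64, beside 16.3%. Leaving out any 1 array other than positive replicate 1 left between 26 and 52 called higher and between 28 and 58 called lower. Calls over all probes, 5731 with every array, were then between 2027 and 3599. Leaving out positive replicate 1 gave 91 and 100, with a median of -0.05, and 6449 calls over all probes. Called probes that rose had a median fold of 2.04 (quartiles 1.73 and 2.63), and called probes that fell one of 1.80 (quartiles 1.63 and 2.44).

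The calls were spread over the kinds of record. Among 219 tested predicted genes, models named Gm with no known product, 12 were called higher and 10 lower. Among 196 tested transcripts described as a gene with a descriptive name, 20 were higher and 20 lower. Of 97 tested cDNAs with an unclassifiable product, 15 were higher and 6 lower with a median difference of 0.36, and of 63 cDNAs with a hypothetical product 10 were higher and 8 lower. Of 62 tested RIKEN cDNA genes 3 were higher and 9 lower, with a median difference of 0.18, and of 77 transcripts with no description 3 were higher and 11 lower, with a median of -0.17. Of 33 tested pseudogenes, 0 were higher and 3 lower. Immune receptor segments, which are rearranged and expressed in lymphocytes, were tested on 3 of 47 probes and chemosensory receptors on 0 of 7, and none of these 3 was called. Differences between the kinds of record were not tested.

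**Figure D1:**
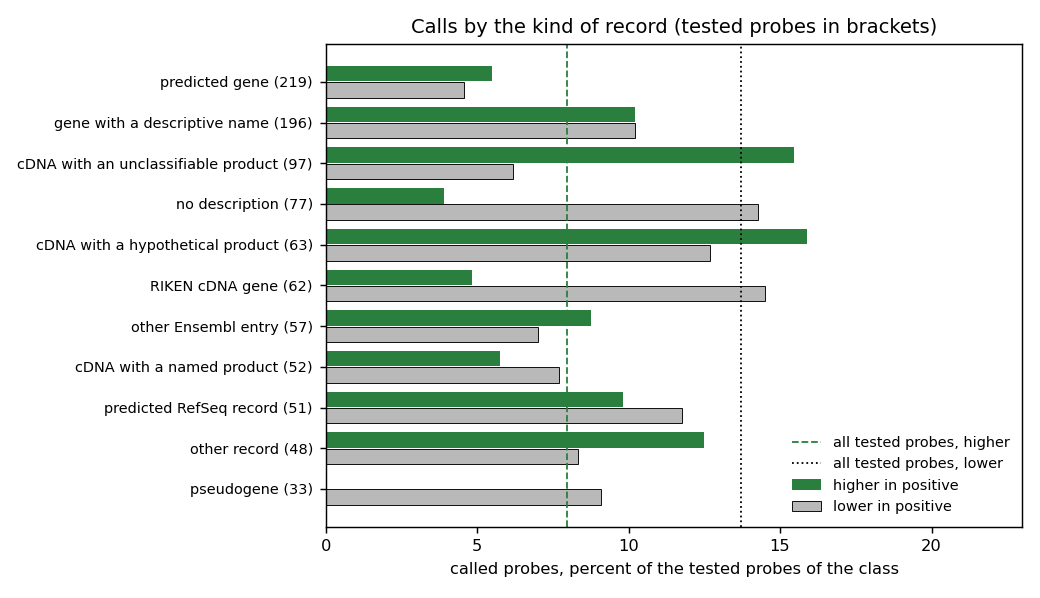
Share of tested probes called higher (green) or lower (grey) in Sox9-EGFP positive cells, in percent of the tested probes of each kind of record with at least 30 tested probes; the lines mark the shares among all tested probes, 7.96% higher and 13.7% lower. Unclassifiable cDNAs have 15 higher and 6 lower of 97, and pseudogenes 0 and 3 of 33.

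Sequence features played no part in the choice of the probes. A 25-base stretch shared with another probe was in 1 of the 82 called higher, in 15 of the 85 called lower and in 122 of the 792 tested but uncalled. Median GC content was 40% in probes called higher and 41.67% in those called lower, against 45% in tested probes that were not called and 43.33% in all accession-only probes. A polyadenylation hexamer was in 15 of the 82 called higher (18.3%), in 18 of the 85 called lower (21.2%) and in 121 of the 792 tested but uncalled (15.3%). For 25 transcripts with more than 1 tested probe, 54 probes in all, the differences of all probes had the same sign in 20, and their range within a transcript had a median of 0.13 and a maximum of 1.47.

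Of the 20 transcripts with the largest differences, 7 went undetected over background by every array of 1 group, among them the 3 largest higher ones. Where no array of a group was well above background, the fold is given as at least the bright group's mean over a floor for the dim group. That floor is the mean, over the dim arrays, of the lowest signal well above background on the array or the probe's own signal, whichever was higher. Undetected probes can lie above that lowest signal. ENSMUST00000151998, for 1, was undetected at -4.53 in positive replicate 3, where the lowest signal was -4.77. Folds given as at least a value are therefore approximate and not strict bounds. ENSMUST00000131176, an unclassifiable cDNA at chr6:128957950-128958009 (mm9, plus strand), had levels of -1.58, -0.86 and -0.77 in positive and of -6.80, -6.96 and -6.95 in negative cells. All positive arrays lay far above all negative arrays, where the transcript was at background, and the difference was at least 11.6-fold (5.83 ± 0.24, limma adjusted p 0.000408). Its nearest neighbour Clec2g, a C-type lectin gene 23934 bp away, was at background on every array. AK042906, at chr3:141154898-141154957 (plus strand), was measured on all 6 arrays, at 1.52, 2.51 and 2.35 in positive and at -1.35, -1.02 and -0.997 in negative cells. The groups were far apart, with a difference of 3.25 ± 0.29 (limma adjusted p 0.00186), and the nearest coding probe, Pdha2, a testis pyruvate dehydrogenase subunit, lay 281278 bp away and was not above background.

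**Figure D2:**
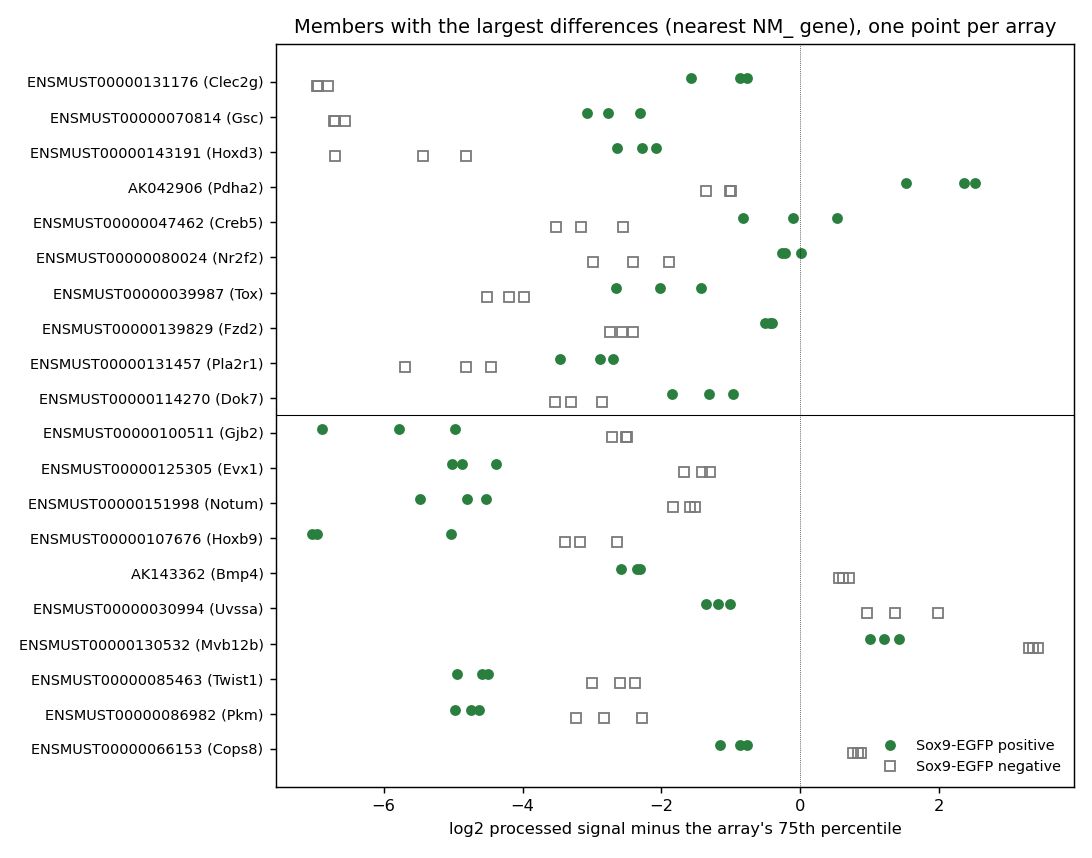
Level of the 10 accession-only transcripts with the largest differences in each direction (higher above the line, lower below it), as log2 processed signal minus the array's 75th percentile; filled circles are the 3 positive arrays, open squares the 3 negative arrays, and the nearest NM_ gene is in brackets. The groups overlap in none, as the choice requires, and the widest gap is that of ENSMUST00000131176, at -1.58 to -0.77 against -6.96 to -6.80.

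Also higher in positive cells was Gm10000 (ENSMUST00000070814), a predicted gene at chr12:105714950-105715009 (plus strand), 5465 bp upstream of the probe of Gsc on the opposite strand. Its levels were -2.31, -2.77 and -3.07 in positive and -6.55, -6.70 and -6.72 in negative cells, where it was at background. That is a difference of at least 3.71-fold (3.94 ± 0.21, limma adjusted p 0.000553). Gsc, the homeobox gene goosecoid, was at 1.68, 0.47 and 0.50 in positive and at -6.51, -5.89 and -6.91 in negative cells, at least 44.8-fold higher. Both probes were at background in the negative cells, so the size of the pair's own difference of -3.38 ± 0.33 (limma adjusted p 0.0023) depends on values at background.

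ENSMUST00000143191, an unclassifiable cDNA at chr2:74591731-74591790 (plus strand), lay 5885 bp downstream of the probe of Hoxd3 on the same strand. It was at -2.29, -2.07 and -2.64 in positive and at -4.81, -6.70 and -5.44 in negative cells, at least 4.84-fold higher (3.32 ± 0.48, limma adjusted p 0.0078). Hoxd3, a gene at the anterior end of the HoxD cluster, differed by 3.53 ± 0.38 and was above background on 1 of the 3 negative arrays. The pair's difference of -0.21 ± 0.76 (limma adjusted p 0.876) therefore rests on values at or near background. Across the cluster the coding genes differed in both directions: Hoxd8 by 1.34 and Hoxd9 by 1.40 were called higher, Hoxd12 by -0.77 and Hoxd13 by -1.61 were called lower, and Hoxd4 (1.48), Hoxd10 (0.21) and Hoxd11 (0.22) were not called. A second accession-only transcript in the cluster, ENSMUST00000100000, lay on the opposite strand 2340 bp from the Hoxd3 probe and differed by 0.47 (limma adjusted p 0.288), less than Hoxd3 by 3.06 (adjusted p 0.00101). Also in the cluster, ENSMUST00000048086, 2819 bp from the Hoxd11 probe on the same strand, differed by 0.23, beside 0.22 for Hoxd11.

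B130024G19Rik (ENSMUST00000080024), a RIKEN cDNA gene 59012 bp from Nr2f2, the nuclear receptor COUP-TFII, on the opposite strand, was at -0.23, 0.02 and -0.27 in positive and at -2.40, -1.89 and -2.98 in negative cells. The groups did not overlap and differed by 2.27 ± 0.28 (limma adjusted p 0.00536), and Nr2f2 differed by 1.54 ± 0.15. A lincRNA probe 1592 bp away on the same strand differed by 0.70 and was not called (adjusted p 0.112). Gm11627 (ENSMUST00000139829), 29751 bp from the Wnt receptor gene Fzd2 on the opposite strand, was at -0.43, -0.41 and -0.51 in positive and at -2.40, -2.74 and -2.57 in negative cells. Its difference of 2.12 ± 0.14 (limma adjusted p 0.000802) stood beside 1.37 ± 0.20 for Fzd2, a pair difference of 0.76 ± 0.19 (adjusted p 0.0402). Which of the pair differed more turned with the scaling, at 1.19 and 1.71 under normexp and at 1.15 and 1.69 with the authors' matrix.

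ENSMUST00000133463, an unclassifiable cDNA at chr2:26314780-26314839 (plus strand), lay 91 bp from a probe of Notch1, the receptor of the Notch pathway, on the opposite strand. It was at -0.02, -0.32 and 0.05 in positive and at -2.02, -1.64 and -1.82 in negative cells, a difference of 1.73 ± 0.17 (limma adjusted p 0.00248). The nearest Notch1 probe was above background on only 1 array of each group and was not tested, and a second Notch1 probe 4660 bp away was higher by 1.02 ± 0.21 (adjusted p 0.0227).

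Among the transcripts described as forms of coding genes, the probe for Creb5, a CREB family transcription factor, stood out from its own gene. ENSMUST00000047462 lay 301173 bp upstream of the NM_ probe of Creb5 on the same strand and was at -0.83, -0.11 and 0.53 in positive and at -3.15, -2.55 and -3.52 in negative cells, a difference of 2.94 ± 0.41 (limma adjusted p 0.00693). The NM_ probe differed by -0.15 ± 0.29 (adjusted p 0.764), with a sign that turned with the normalization (0.11 under quantile normalization), and the difference between the pair was 3.09 ± 0.63 (adjusted p 0.0206). Another Creb5 probe on the same strand, 2703 bp from the Ensembl probe, was higher by 3.80 ± 0.51 (adjusted p 0.00657). The Tox transcript ENSMUST00000039987, 1145 bp from the NM_ probe of this HMG-box gene, differed by 2.19 ± 0.33 beside 1.93 ± 0.26, and the pair did not differ detectably (0.27 ± 0.20, adjusted p 0.396).

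The last of the 10 higher transcripts were less firm. ENSMUST00000114270, a form of the neuromuscular docking protein gene Dok7, differed by 1.86 ± 0.28 (limma adjusted p 0.00895), while the NM_ probe of Dok7 was not above background on any array. ENSMUST00000131457, 6500 bp from Pla2r1 on the opposite strand, differed by 1.97 ± 0.37 (adjusted p 0.0159), and its call was lost with the normexp correction (0.44) and with the authors' normalized values (0.44).

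Among the transcripts lower in positive cells, AK143362, an unclassifiable cDNA at chr14:47008864-47008923 (plus strand), lay 5414 bp upstream of the probe of Bmp4 on the opposite strand. It was at -2.58, -2.31 and -2.35 in positive and at 0.62, 0.56 and 0.71 in negative cells, a difference of -3.04 ± 0.13 (limma adjusted p 0.000513), and 2 of the 3 positive arrays detected it above background. Bmp4, a BMP ligand named by the network in the series title, differed by -4.22 ± 0.14 at this probe. Another NM_ probe of Bmp4, 5666 bp from AK143362, was not above background on any array. The same held for the probes of Gm15217, an NM_ gene on the strand of AK143362, at 5640 and 5846 bp. The difference of AK143362 was smaller than that of Bmp4 by 1.18 ± 0.16 (adjusted p 0.00652), and was -3.13, -3.02 and -2.96 within the 3 slides.

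Evx1os (ENSMUST00000125305), the RNA opposite the homeobox gene Evx1, at chr6:52258383-52258442 (minus strand), was at -4.88, -5.01 and -4.38 in positive and at -1.67, -1.41 and -1.30 in negative cells. All positive arrays lay below all negative arrays, with a difference of -3.30 ± 0.21 (limma adjusted p 0.00075). Evx1, whose probe lay 9856 bp away, differed by -3.27 ± 0.16. Only 1 of the 3 positive arrays detected Evx1os, so the pair's difference of -0.03 ± 0.25 (adjusted p 0.957) rests on values near background, and under normexp the 2 probes differed by -1.44 and -2.92. In the HoxA cluster beyond it, Hoxa11 was higher by 1.61 and Hoxa13 (-0.76), Hoxa10 (0.15) and Hoxa9 (0.47) were not called. ENSMUST00000141300, 7152 bp from the Hoxa13 probe on the opposite strand, differed by -0.82 ± 0.45 and was not called either (adjusted p 0.242).

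ENSMUST00000151998, a cDNA with a hypothetical product at chr11:120523011-120523070 (plus strand), lay 7743 bp upstream of the probe of Notum, which encodes the secreted enzyme that inactivates Wnt proteins, on the opposite strand. It was at -4.80, -5.47 and -4.53 in positive cells, at background, and at -1.59, -1.52 and -1.83 in negative cells, at least 5.04-fold lower in positive cells (-3.28 ± 0.26, limma adjusted p 0.00134). Notum differed by -0.66 ± 0.38 (adjusted p 0.265), with positive replicate 1 at 1.94 and the other positive arrays at 0.57 and 0.75, and the difference between the pair was -2.63 ± 0.37 (adjusted p 0.00666). The size of the pair's difference depends on the transcript's values at background in positive cells. Under normexp the transcript differed by -1.29 and Notum by -0.51. Without positive replicate 1 Notum was called lower (-1.08, adjusted p 0.0149), and with any other array left out it was not (adjusted p 0.331 to 0.503).

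Gm10871 (ENSMUST00000100511), a predicted gene at chr14:57719593-57719652 (plus strand), lay 1905 bp from the probe of the connexin gene Gjb2 on the opposite strand, in a cluster of 3 connexin genes. It was at -4.97, -6.89 and -5.79 in positive cells, at background, and at -2.71, -2.51 and -2.50 in negative cells, at least 2.81-fold lower in positive cells (-3.31 ± 0.46, limma adjusted p 0.00721). Of the connexin genes, Gjb2 (-1.47) and Gja3 (-3.87) were lower and Gjb6 (2.77) was higher in positive cells. Gm53 (ENSMUST00000107676), 12176 bp upstream of the probe of Hoxb9 on the same strand, was at -5.03, -6.96 and -7.02 in positive and at -3.17, -3.39 and -2.64 in negative cells (-3.27 ± 0.57, adjusted p 0.0131). Both Gm53 and Hoxb9 were at background on all positive arrays, so that only approximate bounds can be given, at least 1.996-fold lower for Gm53 and at least 5.05-fold lower for Hoxb9. A lincRNA probe of identical sequence differed by -3.26, but one 162 bp away differed by -0.01 (adjusted p 0.991), and the call of Gm53 did not hold when positive replicate 3, or negative replicate 1 or 3, was left out (adjusted p up to 0.0585).

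**Figure D3:**
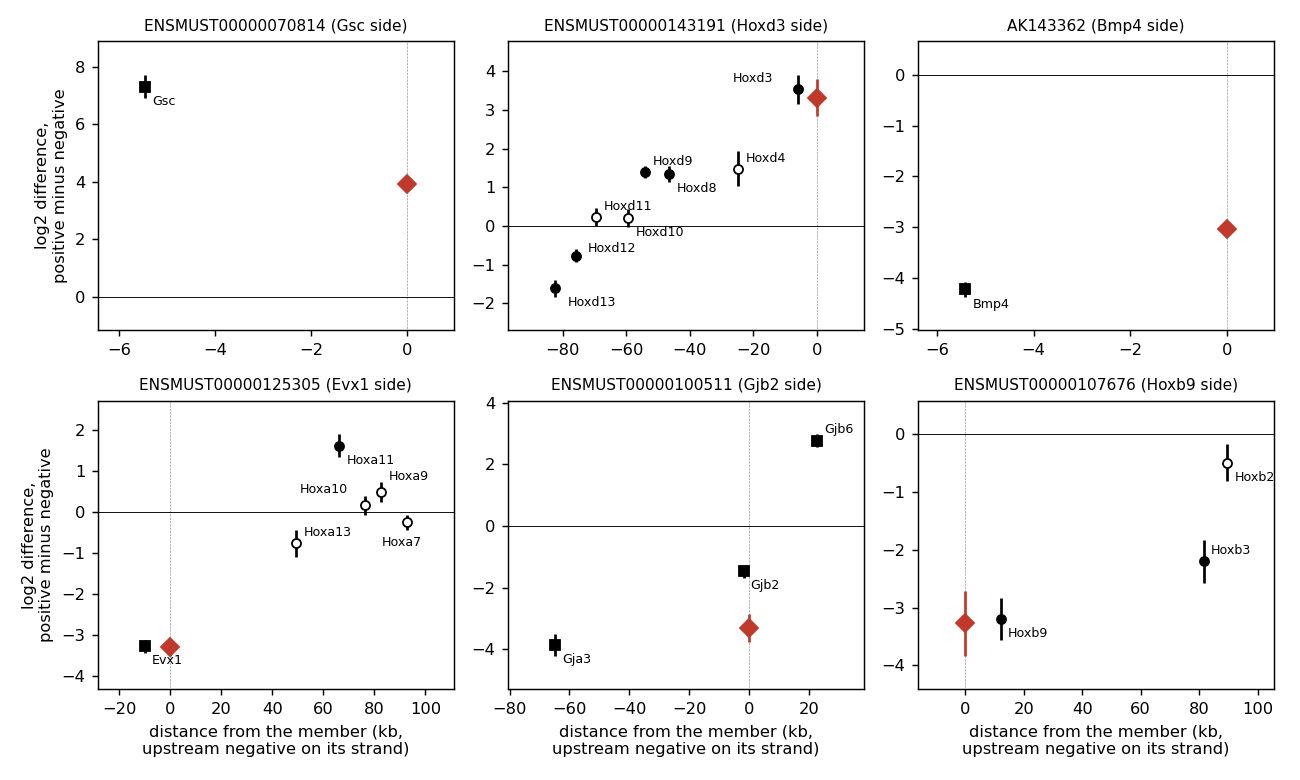
Log2 difference, positive minus negative (vertical axis, bars are SE), of 6 accession-only transcripts (red diamonds at 0) and of the tested coding genes within 100 kb, by distance in kb on the transcript's strand; circles are genes on the same strand, squares on the opposite strand, and filled symbols are called. Genes of the HoxD cluster run from 3.53 for Hoxd3 to -1.61 for Hoxd13; several transcripts, and Gsc, Hoxd3 and Hoxb9, are at or near background in 1 group, where the plotted size is not exact.

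Between Lmx1b, the gene of dorsal limb identity, and Mvb12b, a subunit of a membrane sorting complex, 2 accession-only transcripts were lower in positive cells. ENSMUST00000130532, at chr2:33571897-33571956 (minus strand), was bright, at 1.21, 1.43 and 1.004 in positive and at 3.43, 3.30 and 3.36 in negative cells. The groups were well apart, with a difference of -2.15 ± 0.15 (limma adjusted p 0.00101). Mvb12b, the nearest coding probe 13538 bp away on the same strand, was higher by 1.05 ± 0.14, so that the pair differed by -3.20 ± 0.23 (adjusted p 0.00106).

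ENSMUST00000147294, at chr2:33501600-33501659 (plus strand), lay 6530 bp from the Lmx1b probe on the opposite strand and was at 2.17, 2.63 and 2.37 in positive and at 4.05, 3.79 and 3.29 in negative cells, a difference of -1.32 ± 0.23 (limma adjusted p 0.014). The call was lost without positive replicate 3 or negative replicate 1 (adjusted p up to 0.0567). All 6 lincRNA probes within 10 kb on the same strand were called lower, by -1.46 to -1.26, and 1 of them shares bases with the Ensembl probe. Lmx1b itself missed the threshold at -0.92 ± 0.27 (limma adjusted p 0.0581) and passed it under normexp (adjusted p 0.0274), quantile normalization (0.039), the authors' matrix (0.0284), the filter on all 6 arrays (0.0479), trend and robust moderation (0.0479) and without positive replicate 1 (0.013). The pair's difference was -0.40 ± 0.38 (adjusted p 0.499).

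Of the other lower transcripts, ENSMUST00000030994, described as the homeobox gene Nkx1-1, differed by -2.63 ± 0.28 (limma adjusted p 0.00314), with levels of -1.01, -1.36 and -1.19 against 1.99, 0.96 and 1.37. An Nkx1-1 probe shifted by 16 bp differed by -1.24 and was not called (adjusted p 0.0776), and lincRNA probes 162 and 282 bp away differed by 0.09 and -0.19. ENSMUST00000085463, a form of the histone deacetylase gene Hdac9, differed by -2.01 ± 0.21 with detection by only 1 of the 3 positive arrays, beside -1.92 ± 0.14 for the next coding probe, Twist1, a mesenchymal transcription factor 147614 bp away.

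ENSMUST00000066153, a form of the collagen gene Col6a3, differed by -1.76 ± 0.15 (limma adjusted p 0.00156), at -0.87, -1.15 and -0.77 against 0.88, 0.84 and 0.76. ENSMUST00000086982, 4369 bp downstream of the probe of the glycolytic gene Pkm on the same strand, was at background in positive cells and at least 2.39-fold lower there (-2.002 ± 0.260, adjusted p 0.00588). AK203298, between the 2 and 192 bp from the Pkm probe, differed by -0.83 ± 0.13 and Pkm by -0.94 ± 0.23, a call lost under normexp and quantile normalization (adjusted p 0.15 and 0.183).

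For a list of 162 genes of limb patterning and signalling, 18 accession-only probes lay within 10 kb of a listed gene, 9 were tested, and 2 were called higher (beside Gsc and Notch1) and 2 lower (beside Bmp4 and Lmx1b), where 7.96% and 13.7% of all tested probes were called. The remaining 5 showed no called difference: those beside Hoxa13 and Hoxd11 are given above, 2 opposite Irx3 differed by -0.08 and 0.10, and ENSMUST00000069457 opposite Tfap2a by -0.10 ± 0.21. Tfap2a, a transcription factor gene of ectoderm and limb mesenchyme, differed by -2.66, and that pair differed by 2.55 (limma adjusted p 0.00336). The 2 probes of that pair were not both above background on all 6 arrays, so the size is not exact.

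The differences of an accession-only transcript and its coding neighbour were most alike within 1 kb on the same strand, and on the opposite strand the likeness followed no order of distance. For the 81 tested pairs within 1 kb on the same strand, the differences correlated with a Pearson r of 0.90 (Spearman 0.87). Both probes were called in 13 of them, all with the same sign. In 0 of the 81 did the pair differ between its 2 probes by limma on the within-array difference. Over all 19519 tested pairs, of any distance and strand, the share was 18.7%. Between NM_ probes of different genes, on the same strand within 1 kb, 0 of 24 pairs differed and r was 0.43. Probes that overlap the neighbour's probe or are described as its gene were not taken out of the 81. Such pairs can read the same transcript. On the opposite strand within 1 kb there were 17 pairs with r 0.15, of which 4 differed. Between 1 and 10 kb, r was 0.63 over 155 pairs on the same strand and 0.65 over 90 on the opposite strand, where the Spearman value was 0.36 and the Gsc, Evx1 and Bmp4 pairs lie far from the rest. Between 10 and 100 kb it was 0.44 (153 pairs) and 0.12 (140 pairs), and beyond 100 kb 0.01 (61 pairs) and 0.24 (41 pairs). These are correlations across probes of the same 6 arrays, which share every array's scaling, and probes are not independent replicates.

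**Figure D4:**
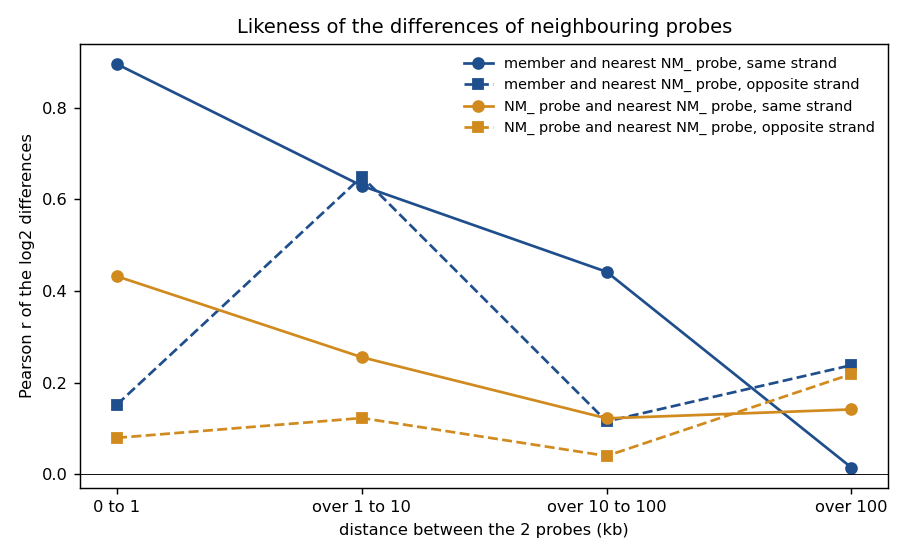
Pearson r between the log2 differences of a probe and its nearest NM_ probe, by the distance between them in kb; blue is accession-only transcripts, orange NM_ probes, solid lines the same strand and dashed lines the opposite strand. The value for accession-only transcripts is 0.90 within 1 kb on the same strand, over 81 pairs, and 0.15 on the opposite strand, over 17 pairs.

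Within 10 kb, 343 pairs were tested, and both probes were called in 33. Of these 33 pairs, 11 were higher and 18 lower in both probes and 4 had opposite signs. With any 1 array other than positive replicate 1 left out, between 11 and 20 pairs had the same sign and between 0 and 2 opposite signs. Between NM_ probes and the nearest NM_ probe of another gene within 10 kb, both were called in 365 of 4824 pairs, 256 of them with the same sign and 109 with opposite signs, and r was 0.14. The 140 tested pairs described as 1 gene, at any distance, had r 0.62, and the 128 same-strand pairs within 10 kb that were not so described had r 0.67. Of the 72 called accession-only transcripts within 10 kb of a coding neighbour, the neighbour was called for 33, tested but not called for 33 and not tested for 6. Of all 16685 tested NM_ probes, 4201 (25.2%) were called. Pairs that can read the same transcript were not taken out of the 72.

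**Figure D5:**
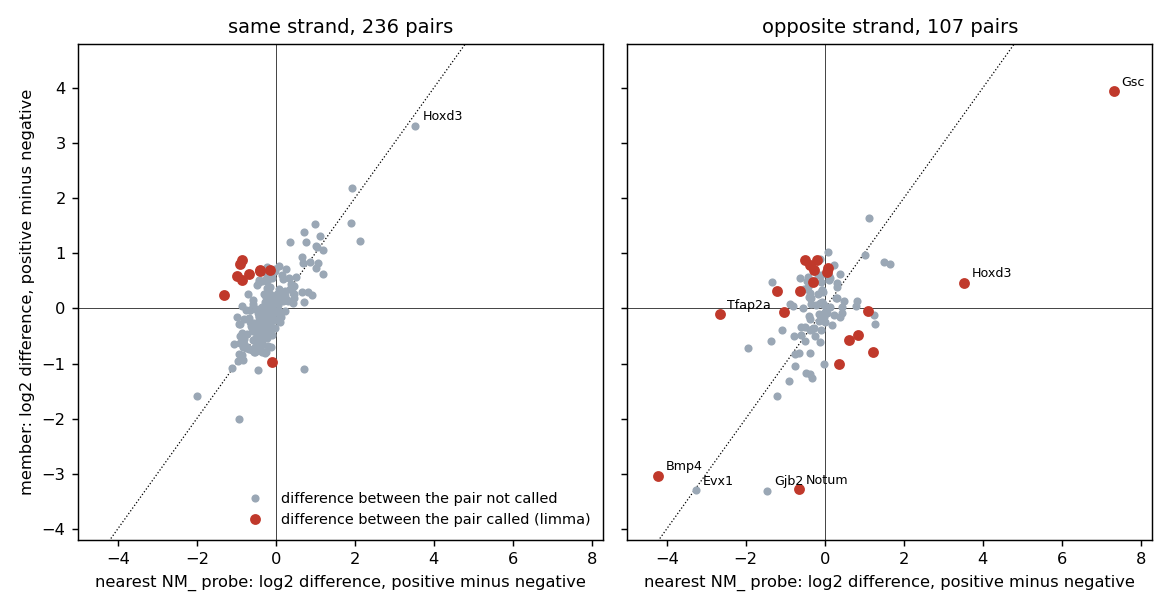
Log2 difference, positive minus negative, of accession-only transcripts (vertical) against that of the nearest NM_ probe within 10 kb (horizontal), on the same strand (236 pairs) and on the opposite strand (107 pairs); the dotted line marks equal differences and red points are pairs whose 2 differences were themselves called different. Red points number 10 on the same strand (4.24%) and 20 on the opposite strand (18.7%), among them the Gsc, Bmp4, Notum and Tfap2a pairs. The share over all 19519 tested pairs was 18.7%.

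The differences of the 2 probes were called unequal in 30 of the 343 pairs (8.75%). These were 10 of 236 on the same strand (4.24%) and 20 of 107 on the opposite strand (18.7%). The share over all 19519 tested pairs was 18.7%. Between NM_ probes of different genes within 10 kb it was 14.4% on the same strand and 22.1% on the opposite strand. The accession-only transcript had the higher difference in 21 and the lower in 9. In 15 of the 30, both probes were above background on all 6 arrays, 6 on the same and 9 on the opposite strand. In the other 15 a probe at background in some arrays takes part. Of the 30 pairs, 6 had both probes called, 8 only the accession-only transcript, 11 only the neighbour and 5 neither. The number of unequal pairs was 49 without positive replicate 1 and between 9 and 24 without any 1 of the other arrays, and 38 with slide as a block, beside 24.5% of all pairs.

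In 4 pairs both probes were called with opposite signs, and each difference was under 2-fold in at least 1 probe. G430095P16Rik (ENSMUST00000098571), at chr8:87250684-87250743 (plus strand), lay 209 bp from the probe of Nfix, a nuclear factor I gene, on the opposite strand. It was at 0.74, 1.19 and 1.11 in positive and at 1.93, 1.76 and 1.74 in negative cells, a difference of -0.80 ± 0.16 (limma adjusted p 0.0211), while Nfix was higher by 1.23 ± 0.21 (adjusted p 0.0118). The pair's difference was -2.03 ± 0.25 (adjusted p 0.00459), with both probes above background on all arrays, but the call of the transcript was lost without positive replicate 3 or without any of the 3 negative replicates (adjusted p up to 0.0887), and with quantile normalization.

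ENSMUST00000090541, described as a form of Atp5g1, a subunit of the mitochondrial ATP synthase, differed by 0.87 ± 0.24 (limma adjusted p 0.0476) and the NM_ probe of Atp5g1, 3939 bp away on the same strand, by -0.86 ± 0.17, a difference between the pair of 1.73 ± 0.23 (adjusted p 0.00581). ENSMUST00000130639 differed by 0.88 ± 0.22 and Mpc1, a mitochondrial pyruvate carrier gene on the opposite strand, by -0.50 ± 0.14. The calls of both transcripts were lost when single arrays were left out, up to adjusted p values of 0.138 and 0.125. That of the transcript beside Mpc1 was also lost with normexp or quantile normalization. The calls of the neighbouring probes were no firmer. That of this Mpc1 probe (limma adjusted p 0.0498) was lost whichever array was left out. It was also lost under normexp, quantile normalization, median centring (adjusted p 0.051) and the authors' matrix. That of the Atp5g1 NM_ probe was lost without any array other than positive replicate 1 (adjusted p up to 0.0758). Another NM_ probe of Mpc1, above background on all arrays, differed by -0.52 ± 0.12 and was called (limma adjusted p 0.03). Its values under the alternatives are not given here.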

How the data were processed

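Per the file headers, the authors' scanner software (Agilent Feature Extraction) gave each spot a background-corrected intensity, on a linear scale and not normalized between arrays. The authors' deposited series matrix holds log2 values, used only as an alternative. RNA was labelled from an oligo-dT primer, per the labels' protocols. The intensities were turned into log2 values minus each array's 75th percentile over 59305 non-control spots (3671 control spots left out). For 432 probes the mean of several spots was taken, and removing outlier spots dropped 17 probes. Testing required detection well above background by every array of 1 group or the other, as 26473 probes had.

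The comparison between groups used limma 3.58.1 under R 4.3.3 (lmFit, eBayes, Benjamini-Hochberg over all tested probes, threshold 0.05). Pairs were tested with limma on the within-array difference, adjusted over 19519 pairs. The neighbour is the nearest probe with an NM_ accession and another gene name, by mm9 coordinates. Strand was read from the order of the coordinates, and exons or introns were not annotated here. Current symbols came from a RefSeq table (GRCm38.p6), which held the accessions of 2193 of 2236 neighbour probes and a symbol for 584 of the 2782 accession-only probes.

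The smallest exact p for 3 against 3 arrays is 0.1, so calls rest on limma's shared variance. The labels do not say whether samples came from separate litters, so p-values measure the spread between these samples. No spot was saturated, and the number of arrays limits the precision. Each of 3 slides held 1 array per group. Correlations of the deviations from the group means were -0.27, -0.46 and 0.29 for same-numbered arrays, and the numbers were not used as pairs. For arrays of the same slide they were 0.56, 0.41 and 0.24, and positive replicate 2 with negative replicate 1, which share neither, had 0.18. Deviations are taken from means of 3 arrays, so these correlations depend on one another and do not settle which arrays belong together. The fit without slide is the one reported, with slide as a block as an alternative.

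Named transcripts are the 10 largest called differences in each direction (no overlap between groups, detected by every array of the group with the higher level), the called ones within 10 kb of listed limb genes, and the called pairs within 10 kb with the largest differences, of which 1 is not reported here. The other transcripts beside the same genes, the further probes within 10 kb and the genes within 100 kb were added after their values were seen. The members and lists were chosen with earlier results of these data known. The fits were also run on simulated data, with 200 of 26473 probes changed, far fewer than the 5731 called here, so recovery can differ. Changes of 1.5, 2, 4 and 8-fold were recovered for 0%, 20%, 70% and 86% of the changed probes. Of the pairs changed 2-fold or more, 41.1% were recovered. A probe or pair that was not called can therefore still differ. Alternatives were normexp (offset 50) with quantile normalization, quantile normalization, median centring, the series matrix, no background filter, a filter requiring detection by all 6 arrays, trend and robust moderation, slide and replicate blocks, stricter thresholds, other distances, and leaving out each array.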

Additional observations from a re-analysis of the deposited data

How the results depend on the processing

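Over the 48 transcripts and neighbours named, 603 of the values under an alternative kept their direction and side of the threshold, 89 lost and 8 gained the call, and 4 changed sign. These 4 all belong to the NM_ probe of Creb5, at 0.11 with normexp, 0.11 with quantile normalization, 0.067 with the authors' matrix and 0.056 without positive replicate 2 (-0.48 without positive replicate 1). Calls over all probes, 5731, were 3795 with quantile normalization, 1350 without a filter on background, 1370 with a replicate block, 1718 at a threshold of 0.01, 2335 at 2-fold or more, and 2027 to 6449 with 1 array left out. Accession-only probes called higher, 82, were in the same order 43, 37, 26, 20, 42 and 26 to 91, with 48 under normexp and 52 with the authors' matrix. Those called lower, 85, were 15 without the filter, 24 with the replicate block, 25 at 0.01, 31 at 2-fold and 28 to 100. The median of 0.08 was 0.0058 under normexp, 0.010 under quantile normalization, 0.00 with the authors' matrix, 0.51 without the filter, where most added probes are at background, and -0.050 to 0.14 with 1 array left out.

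Pairs within 10 kb called with the same sign, 29, were 17 with quantile normalization, 7 without the filter, 8 with the replicate block, 11 at 0.01, 13 at 2-fold, 13 within 1 kb and 11 to 39 with 1 array left out. The 4 with opposite signs were 2 under normexp, 1 under quantile normalization, 2 with the matrix, 2 with trend and robust moderation, 0 without the filter, with the replicate block, at 0.01 and at 2-fold, 1 within 1 kb, 8 within 100 kb and 0 to 2 with 1 array left out. Unequal pairs, 30, were 12 without the filter, 8 with the replicate block, 9 at 0.01, 4 within 1 kb, 75 within 100 kb and 9 to 49. The labels give no pairing by replicate number, and a call lost under that block leaves the size of the difference unchanged. The cause of these shifts was not tested. ENSMUST00000131176 differed by 5.83, and by 1.90 with normexp (offset 50) and quantile normalization.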
